A study of Homo sapiens with 15 samples.

Results

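The ISG15 conjugation system is the set of 6 genes ISG15, UBA7, UBE2L6, HERC5, HERC6 and USP18, and its members were the transcript clusters that the array annotation assigns to one of these symbols alone. Each gene had 1 such cluster, which gives 6 of the 28926 clusters on the array. A further cluster carried both USP18 and its pseudogene USP41P and is given beside USP18 without being counted. The cells were MT-2, a CD4+ T-cell line transformed by and infected with HTLV-1, and all conditions share this one line. They were cultured for 48 hours with IFN-α2A (1000 IU/ml), without treatment, or with ascorbic acid (AA) at a low (10 µg/ml), intermediate (50 µg/ml) or high dose (100 µg/ml). Affymetrix Human Gene 1.0 ST arrays were made from 3 experiments with every condition in each, hence 15 arrays, and the experiments are numbered by a tag that the sample titles share. Experiments 2 and 3 share a date in these tags, and nothing in the labels says that they were separate cultures, so p values measure the spread between these samples. In RNA of a whole culture, fewer cells that express a gene and less mRNA per cell cannot be told apart.

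ISG15 is a small protein built of a pair of ubiquitin-like domains that cells attach to other proteins when interferon is present. The attachment runs through an enzyme chain, in which UBA7 is the activating enzyme (E1), UBE2L6 the conjugating enzyme (E2) and HERC5 the main ligase (E3) of human cells. HERC6 is the close relative of HERC5 that serves as the main ISG15 ligase in mouse. USP18 removes ISG15 from its targets and, apart from that, binds the interferon receptor chain IFNAR2 and dampens its signalling. All of these genes are classically known as interferon-stimulated, and most are switched on through the ISRE, a short DNA element that is bound by transcription factors which interferon activates.

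To show where such elements lie, the 250 bases before the RefSeq gene start were searched in GRCh38.p14 for the ISRE core GAAANNGAAA on both strands. ISG15, HERC5, HERC6 and UBE2L6 had an entry in the sequence table, with 2 starts for UBE2L6. The core was found in ISG15 and in HERC5, and in 1061 of all 35116 listed promoters (3.02%). The promoters of ISG15 (chr1:1013247-1013496, plus strand) and HERC5 (chr4:88456869-88457118, plus strand) are printed because they hold the core, and that of HERC6 (chr4:88378602-88378851, plus strand) because it does not, and capitals mark every match.
ISG15: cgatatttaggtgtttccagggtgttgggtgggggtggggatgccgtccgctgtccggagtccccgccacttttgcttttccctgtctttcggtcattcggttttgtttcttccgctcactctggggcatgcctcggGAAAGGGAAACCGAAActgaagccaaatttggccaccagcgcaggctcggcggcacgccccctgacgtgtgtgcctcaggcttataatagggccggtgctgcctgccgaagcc
HERC5: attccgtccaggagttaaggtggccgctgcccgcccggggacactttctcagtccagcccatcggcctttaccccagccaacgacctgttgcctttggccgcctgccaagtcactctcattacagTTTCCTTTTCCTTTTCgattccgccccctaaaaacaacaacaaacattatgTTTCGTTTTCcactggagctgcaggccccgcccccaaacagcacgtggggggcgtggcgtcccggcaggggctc
HERC6: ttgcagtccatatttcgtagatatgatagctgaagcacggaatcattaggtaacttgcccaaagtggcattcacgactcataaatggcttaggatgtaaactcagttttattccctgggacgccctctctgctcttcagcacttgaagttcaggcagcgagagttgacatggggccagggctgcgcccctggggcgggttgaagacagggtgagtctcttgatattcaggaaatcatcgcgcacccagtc
In ISG15 a pair of overlapping matches ran from base 113 to base 98 before the start. In HERC5 the matches were on the opposite strand, 2 of them overlapping from base 125 to base 110 and another from base 74 to base 65. Neither HERC6 nor the 2 UBE2L6 windows held these letters, and no promoter of the 4 genes held TTCNNNGAA, the core of the GAS element, which occurs in 6.57% of the promoters. A match is only a string of letters and does not show that a factor binds there. The lack of a match does not show that a gene has no ISRE, since only these exact letters in these 250 bases were searched.

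The values are log2 values normalised by RMA, so a difference of 1 is a doubling of the signal, and they are given as mean ± SD over the 3 arrays of a condition. A cluster was called at an unadjusted p under 0.001 in limma, and p values adjusted over the 28926 clusters by Benjamini-Hochberg stand beside it. Array medians lay between 6.69 and 6.85. Replicate 3 of high-dose AA stood apart, with an SD over clusters of 2.02 against 2.12 to 2.18 on the other 14 arrays and a mean correlation with the other arrays of 0.976 against 0.991 to 0.995. The T-cell markers CD4 (10.10 to 10.97), IL2RA (13.20 to 13.36) and CCR4 (10.89 to 11.54) were high on every array. TNFRSF4 (8.58 to 9.20), FOXP3 (7.13 to 8.01) and CD2 (7.16 to 7.82) lay above the array medians, and CD5 (5.84 to 6.27) lay below them. CD28 (5.17 to 5.78) lay below the lower quartile of the array on 2 of 15 arrays. Among markers of other cells, MS4A1 of B cells, LYZ of monocytes and KLRD1 of NK cells lay below the lower quartile on 15 of 15 arrays. CD79A, CD14, CSF1R, CD8A and CD8B lay above it on every array (5.79 to 6.77). NCAM1 of NK cells (6.86 to 7.16) lay above the array medians, as CD2 did. None of these 17 markers was called in any comparison.

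In IFN-α-treated cells 5 of the 6 genes of the ISG15 system rose and HERC5 did not pass the test. The median log2 change of the 6 genes was 0.82, against -0.01 for all clusters. Of all clusters, 0.273% were called higher in this comparison, and 0.221% were also higher at an adjusted p under 0.05, as the same 5 genes were. In each of the 5 every IFN-α-treated array lay above every untreated array, as it did in 2.62% of all clusters. The changes fell into a group of large ones (HERC6 and USP18), a group of moderate ones (UBE2L6, UBA7 and ISG15) and HERC5 near 0.

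ISG15, the modifier itself, had log2 values of 8.25, 8.23 and 8.29 in IFN-α-treated cells, against 7.70, 7.70 and 7.48 in untreated cells, in the order of the experiments. The IFN-α-treated arrays lay within 0.06 of each other and all above the untreated arrays. The mean was 8.26 ± 0.03 in IFN-α-treated cells and 7.63 ± 0.13 in untreated cells (SD, n = 3 each), a change of 0.63 (standard error 0.0882) or 1.55-fold, with an adjusted p = 0.00348 from limma.

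UBA7, the activating enzyme, had log2 values of 8.84, 9.36 and 9.16 in IFN-α-treated cells, against 8.16, 8.42 and 8.41 in untreated cells. Its lowest IFN-α-treated array was that of experiment 1, in which the untreated array was lowest too. The change was 0.79 (standard error 0.123) or 1.73-fold, with an adjusted p = 0.00919 from limma. UBE2L6, the conjugating enzyme to which UBA7 passes ISG15, had log2 values of 9.53, 9.78 and 9.36 in IFN-α-treated cells, against 8.72, 8.71 and 8.69 in untreated cells. Its untreated arrays were almost equal, and the IFN-α-treated arrays were all higher. The mean was 9.56 ± 0.21 in IFN-α-treated cells and 8.71 ± 0.02 in untreated cells (SD, n = 3 each), with a change of 0.85 (standard error 0.0964) and an adjusted p = 3.86e-04 from limma.

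HERC6 had the largest change of the 6 genes. Its log2 values were 8.63, 7.85 and 7.82 in IFN-α-treated cells, against 6.54, 6.14 and 6.25 in untreated cells. The groups did not overlap, and experiment 1 had the highest array in both. The change was 1.79 (standard error 0.270) or 3.46-fold, with a 95% interval of 2.32- to 5.17-fold and an adjusted p = 0.00722 from limma. Among the 19310 clusters with 1 symbol this was the 19th largest rise.

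HERC5, the human ligase, had log2 values of 4.18, 4.31 and 4.20 in IFN-α-treated cells, against 4.19, 4.23 and 3.92 in untreated cells. The groups overlapped, and the low untreated array of experiment 3 gave most of the difference. The mean was 4.23 ± 0.07 in IFN-α-treated cells and 4.11 ± 0.17 in untreated cells (SD, n = 3 each), a difference of 0.12 with a 95% interval of -0.08 to 0.31 and an adjusted p = 1.0 from limma. HERC5 lay below the lower quartile of the array on 15 of 15 arrays, with 9.15% to 14.3% of clusters below it, where a signal may be background. At such a signal a low level of HERC5 mRNA cannot be told from none, and a small change of it may not be seen.

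USP18, the protease that takes ISG15 off again, had log2 values of 10.88, 11.18 and 11.02 in IFN-α-treated cells, against 9.0, 9.54 and 9.52 in untreated cells. All IFN-α-treated arrays lay more than 1 log2 unit above all untreated arrays. The mean was 11.02 ± 0.15 in IFN-α-treated cells and 9.35 ± 0.31 in untreated cells (SD, n = 3 each), with a change of 1.67 (standard error 0.161) or 3.18-fold and an adjusted p = 6.85e-05 from limma. This was the smallest p of the 6 genes in the model without the experiments. In a fit that also held the experiment as a block, HERC6 had the smallest. Its unadjusted p was 1.30e-09 there, against 3.25e-08 for USP18 (limma). USP18 is among the genes that the study lists for IFN-α, a list that prints only the most significant of those that rose. All 6 genes were measured on the study's own arrays, so no rise here is independent evidence. The cluster shared with USP41P gave a close value, a change of 1.74 (standard error 0.138), with log2 values of 11.61, 11.87 and 11.74 in IFN-α-treated cells and 9.62, 10.16 and 10.22 in untreated cells.

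**Figure D1:**
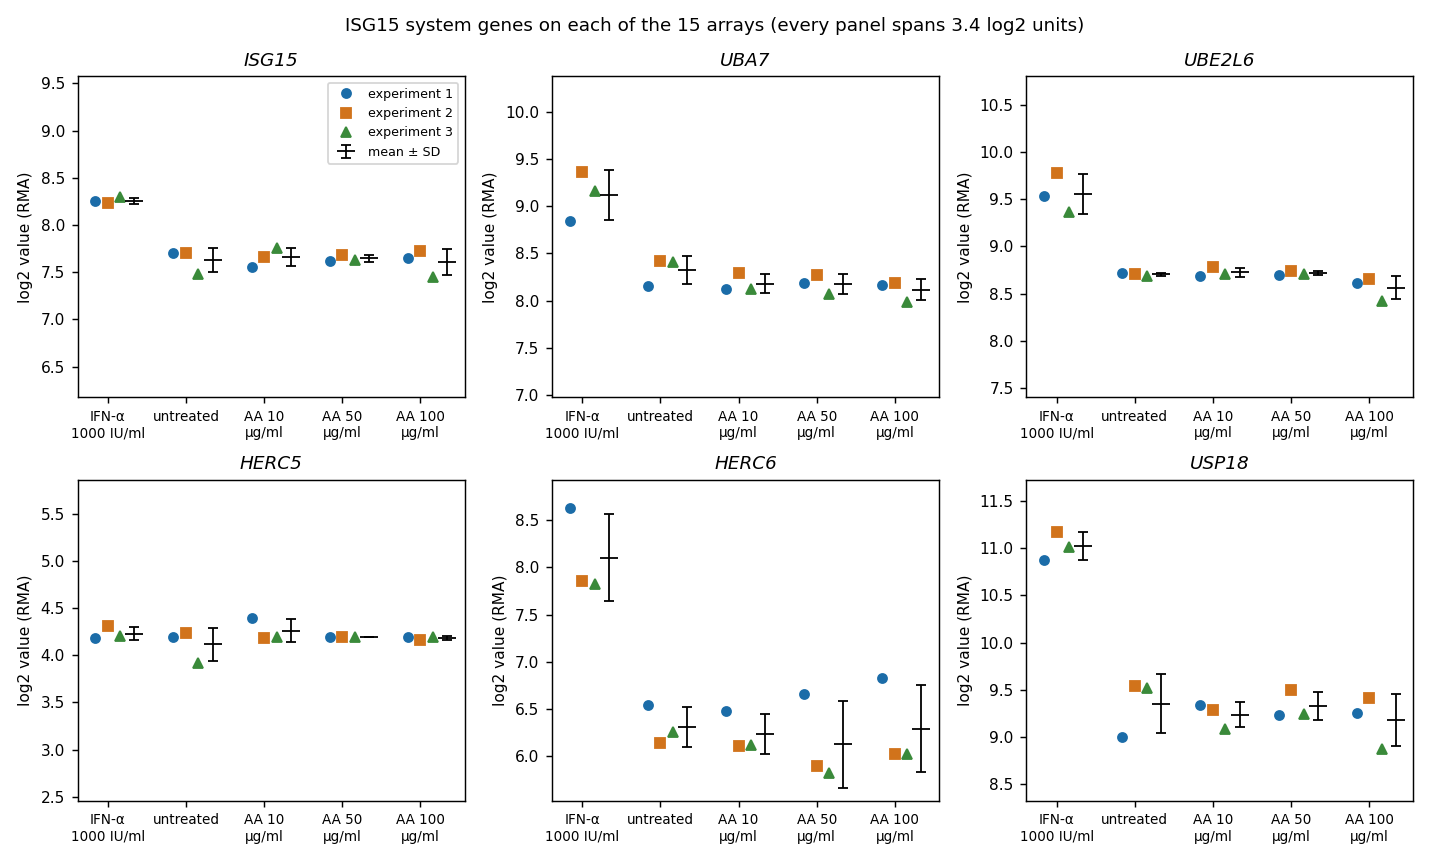
RMA log2 values (y-axis) of the 6 genes in each condition (x-axis), with 1 marker per array by experiment and the mean ± SD beside them (n = 3). IFN-α-treated arrays lie above all others in 5 panels, HERC5 stays between 3.92 and 4.40 throughout, and HERC6 is higher in experiment 1 in every condition.

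Within experiments, the difference between the IFN-α-treated and the untreated array was 1.57 to 2.09 for HERC6, 1.49 to 1.88 for USP18, 0.68 to 1.07 for UBE2L6, 0.68 to 0.94 for UBA7, 0.53 to 0.81 for ISG15 and -0.01 to 0.28 for HERC5. The ranges of HERC6 and USP18 overlapped, though HERC6 lay above USP18 in every experiment. The ranges of UBE2L6, UBA7 and ISG15 overlapped too, and their order was not kept in experiment 3 (0.68, 0.75 and 0.81). USP18 lay above UBE2L6 and ISG15 above HERC5 in every experiment. HERC6 and USP18 each had their largest difference in experiment 1 and their smallest in experiment 3. ISG15 had its largest difference, 0.81, in experiment 3, in which its untreated array was lowest.

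**Figure D2:**
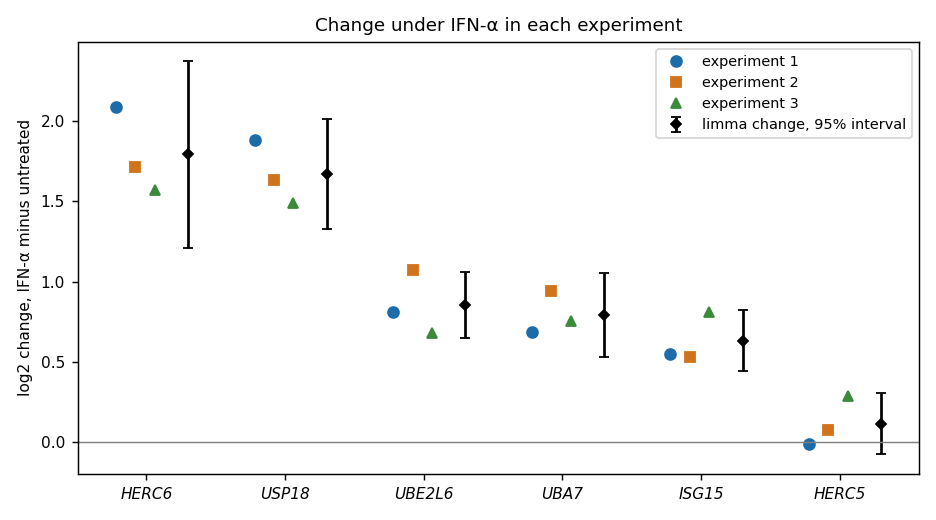
Log2 change of each gene (y-axis), IFN-α minus the untreated array of the same experiment, with genes ordered by change (x-axis); coloured markers are the 3 experiments and the diamond is the limma change with its 95% interval. HERC6 (1.79) and USP18 (1.67) stand above UBE2L6 (0.85), UBA7 (0.79) and ISG15 (0.63), and the interval of HERC5 includes 0.

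The genes whose responses were most like those of each member were looked up over 12 differences, namely each treated array minus the untreated array of its experiment, and likeness is the root mean square of the distance on the log2 scale. ISG15 was nearest to SAMHD1 (0.104), a dNTP-degrading enzyme, then to HELZ2 (0.134). For UBA7 the nearest genes were SHFL (0.151) and TRIM5 (0.152), both of them restriction factors of viruses. UBE2L6 was nearest to IRF7 (0.129), a transcription factor of the interferon response, and SHFL (0.143). HERC6 was nearest to DHX58 (0.172), a helicase of the RNA sensor family, and PLSCR1 (0.181), and USP18 to DHX58 (0.204) and PARP12 (0.227), followed by HERC6 (0.227). HERC5 was nearest to TINAGL1 (0.0714) and CEACAM4 (0.0731), whose IFN-α changes were 0.06 and 0.08. By this measure a cluster that hardly changed, such as HERC5, has neighbours that hardly changed. Each untreated array enters all differences of its experiment, so its scatter bears on likeness too. USP18 was the single member that had another member among its 5 nearest clusters with 1 symbol. For UBA7 several of the 5 were clusters of the same gene, PSMB9, with equal values.

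AA moved none of the 6 genes past the threshold at any dose. At the low dose 0.00346% of all clusters were called higher and 0.0173% lower, at the intermediate dose 0% and 0.0311%, and at the high dose 0.19% and 0.0691%. The median log2 change of the 6 genes was -0.03 at the low, -0.01 at the intermediate and -0.08 at the high dose, against 0.01, 0.01 and 0.02 for all clusters. No member had an unadjusted p under 0.05 at any dose, whereas 2.54%, 2.34% and 11% of all clusters did with rising dose. The lowest adjusted p of a member was 0.515 from limma, that of UBA7 at the high dose. With the experiment as a block, UBA7 at the high dose had an unadjusted p = 0.0537 and an adjusted p = 0.317 (limma).

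ISG15 had a mean log2 value of 7.63 ± 0.13 in untreated cells, 7.66 ± 0.10 with low-, 7.65 ± 0.03 with intermediate- and 7.61 ± 0.14 with high-dose AA (SD, n = 3 each). The 95% interval of its change at the high dose ran from -0.21 to 0.17. A change of ISG15 of the size seen with IFN-α lay outside that interval. UBA7 had 8.33 ± 0.15 in untreated cells and 8.18 ± 0.10, 8.18 ± 0.10 and 8.12 ± 0.11 with rising dose (SD, n = 3 each). Its differences were all negative in experiments 2 and 3, from -0.13 to -0.42, and between -0.04 and 0.02 in experiment 1. At the high dose the change of UBA7 was -0.21 with a 95% interval of -0.48 to 0.05, and it was -0.32 without experiment 1 (unadjusted p = 0.0280, limma) and -0.11 without experiment 3.

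UBE2L6 was the single member whose high-dose arrays did not overlap with the untreated ones. Its log2 values at the high dose were 8.62, 8.66 and 8.42, against 8.72, 8.71 and 8.69 in untreated cells. The lowest was replicate 3, the array that stood apart, and the difference of -0.14 had a 95% interval of -0.35 to 0.07 (adjusted p = 0.573, limma). It was -0.069 without this array and -0.077 without experiment 3. Without overlap and lower at the high dose were 3.66% of all clusters. A slope on the dose over the 12 arrays without IFN-α gave -0.14 per 100 µg/ml for UBE2L6 with a 95% interval of -0.29 to -0.00068, an unadjusted p = 0.0491 and an adjusted p = 0.435 from limma. Without the array that stood apart the slope was -0.069 (unadjusted p = 0.249, limma), and without experiment 3 it was -0.084. An unadjusted p under 0.05 is one that 3.38% of all clusters reached with a falling slope, and no member passed 0.001, against 0.156% of clusters rising and 0.0899% falling.

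USP18 had log2 values of 9.0, 9.54 and 9.52 in untreated cells, 9.34, 9.28 and 9.09 at the low dose, 9.24, 9.50 and 9.24 at the intermediate dose and 9.25, 9.41 and 8.87 at the high dose. In experiment 1, with the lowest untreated array, every dose was higher by 0.24 to 0.35, and in experiments 2 and 3 every dose was lower by 0.04 to 0.65. The low value of 8.87 was that of the array that stood apart, and its difference from the untreated array of experiment 3 was -0.65. For the shared cluster of USP18 and USP41P that difference was -0.33. The mean change of USP18 at the high dose was -0.17 with a 95% interval of -0.52 to 0.17 (adjusted p = 0.673, limma).

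HERC6 had changes of -0.08, -0.19 and -0.02 with rising dose, and the 95% interval at the intermediate dose was -0.77 to 0.39. HERC5 had changes of 0.14, 0.08 and 0.07, and the low untreated array of experiment 3 entered all of them with a difference of 0.28. Both genes overlapped with untreated cells at every dose. All 3 doses were set against the same untreated arrays, so the changes at different doses are not independent of each other.

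**Figure D3:**
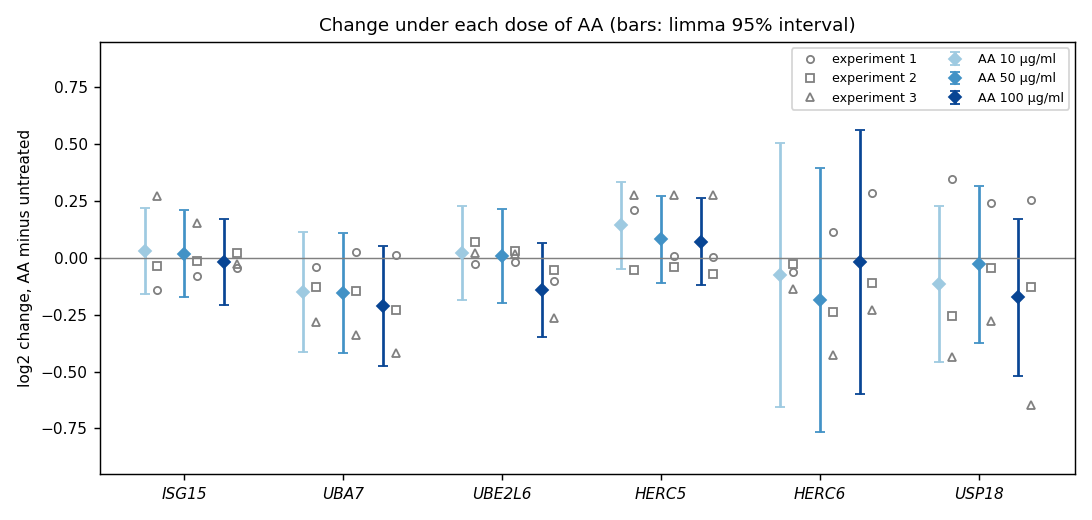
Log2 change against untreated cells (y-axis) at 10, 50 and 100 µg/ml AA (shades of blue) for the 6 genes (x-axis); diamonds and bars are the limma change and its 95% interval, and open markers are the differences within the 3 experiments. Every interval includes 0, and for USP18 experiment 1 lies above 0 and experiments 2 and 3 below it at each dose.

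IFN-α and high-dose AA were also compared directly, with the same IFN-α arrays as above. USP18 was higher by 1.84 (standard error 0.161), HERC6 by 1.81 (0.270), UBA7 by 1.0 (0.123), UBE2L6 by 0.99 (0.0964) and ISG15 by 0.65 (0.0882) in IFN-α-treated cells. These 5 genes were called, with adjusted p values of 1.84e-05 to 0.00533 from limma, against 0.449% of all clusters called higher. HERC5 had a difference of 0.04 with a 95% interval of -0.15 to 0.24. Within experiments, HERC6 differed by 1.80, 1.83 and 1.80, the closest repeat among the called genes, although its levels differed between experiments. Without experiment 2, HERC6 missed the threshold (unadjusted p = 0.00108, limma), with a difference of 1.80.

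HERC6 differed between experiments in all conditions, which was compared after its values had been seen. In experiment 1 it was 6.54 in untreated cells, 6.48, 6.66 and 6.83 with rising AA dose and 8.63 with IFN-α, and in each condition this was the highest of the 3 arrays. Experiment 1 was higher than the mean of experiments 2 and 3 by 0.62 (standard error 0.0743, adjusted p = 9.47e-04, limma). At an unadjusted p under 0.001, 2.7% of all clusters were also higher in experiment 1. Differently treated arrays of an experiment stood in as its repeats, so the standard error and p measure spread between arrays, not between experiments. The other 5 genes did not pass, with differences of -0.13 to 0.05, and 0.857% of clusters were called lower in experiment 1. The tag of experiment 1 carries another date than those of experiments 2 and 3, and date and culture cannot be told apart.

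The genes that surround the system were described by lists, which were chosen with earlier results of these data known. The 0.273% of all clusters called higher with IFN-α is given for scale and does not make the counts a test. Of 8 measured further ligases and proteases that act on ISG15, TRIM25 rose with IFN-α and the other 7 did not pass. TRIM25, an E3 ligase that also acts on the RNA sensor RIGI, had 10.86 ± 0.07 in IFN-α-treated cells and 9.57 ± 0.10 in untreated cells (SD, n = 3 each), a change of 1.29 (adjusted p = 2.61e-06, limma). Of 6 measured relatives, among them HERC1, HERC2, HERC3 and HERC4, none passed, and their changes ran from -0.04 to 0.12. Of the 6 measured genes of interferon receptor signalling, IRF9, a transcription factor that binds the ISRE, rose with a change of 1.04 (adjusted p = 0.0276, limma). It lost the call without experiment 1 (unadjusted p = 0.0040, limma) and without experiment 2 (unadjusted p = 0.0018, limma). The receptor chain IFNAR2 had a change of -0.08.

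Among reported targets of ISG15 conjugation, 6 of 15 measured rose with IFN-α, against 0.273% of all clusters called higher. Whether such a rise goes with being a target was not tested, and a list chosen with earlier results known could not test it. MX1, an antiviral GTPase with 9.33 ± 0.25 in IFN-α-treated cells and 5.89 ± 0.17 in untreated cells (SD, n = 3 each), had a change of 3.44, the translation-blocking kinase EIF2AK2 of 2.24, IFIT3, which binds IFIT1 in its RNA-binding complex, of 2.21, and the RNA sensor RIGI of 2.17. CHMP5, an endosomal sorting protein, had 0.88 and PML, the organiser of nuclear bodies, 0.41. CHMP5 and PML missed an adjusted p under 0.05 (0.315 and 0.145, limma), and each lost the call in 7 of 10 fits that left out arrays. The median change of the 15 genes was 0.05, and 9 of them did not pass. TRIM25, MX1, EIF2AK2 and RIGI are also on the study's own list for IFN-α. All genes of these lists were measured on the study's arrays, so none of the calls is independent evidence. None of 4 genes tied to extracellular ISG15 and none of 21 measured genes of the ubiquitin, SUMO, NEDD8, UFM1, FAT10, URM1 and ATG8 or ATG12 systems passed, and the 21 genes had a median change of 0.01 and a range from -0.18 to 0.11. At the 3 doses of AA no gene of any of these lists passed.

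**Figure D4:**
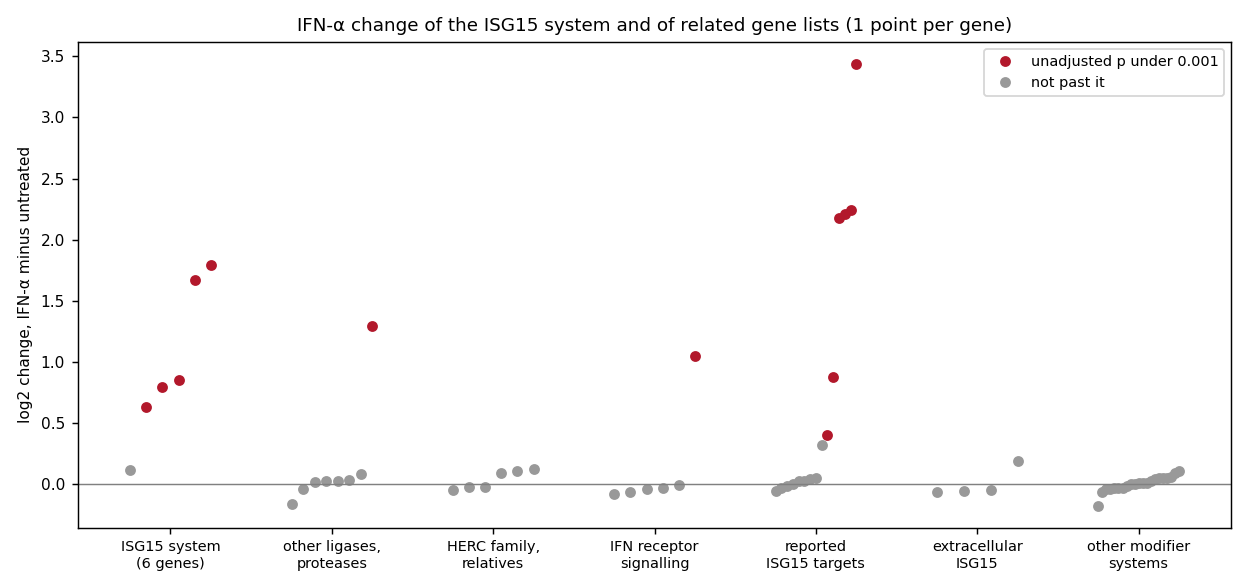
Log2 change under IFN-α (y-axis) of the 6 genes of the ISG15 system and of the measured genes of the related lists (x-axis), 1 point per gene, red where limma gave an unadjusted p under 0.001. In all, 5 of 6 genes of the system are red, 6 of 15 reported targets, 1 of 8 ligases and proteases, 1 of 6 receptor signalling genes and none of the others.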

How the data were processed

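MT-2 cell RNA was measured on 15 Affymetrix Human Gene 1.0 ST arrays. The deposited log2 values are the authors' own, made by RMA with the xps package (background correction, quantile normalization, summarization over a transcript cluster), and no further normalization was applied. RMA levels of different genes are not comparable. The annotation names no genome build. Of the clusters, 19310 carried 1 symbol, 1752 several and 7864 none. The members and lists were chosen with earlier results of these data known. Treatments were contrasted in 1 limma 3.58.1 model over all arrays (R 4.3.3; 10 residual and 3.91 prior degrees of freedom), without a block as in the study's methods, and the dose slope was fitted over 12 arrays. Calls were made at an unadjusted two-sided p under 0.001. List genes were named where called, up to 6 per list by p, and a gene of several clusters was taken by its brightest. The test of IFN-α against untreated cells was also run on simulated data. These had independent noise and no difference between experiments, so they do not cover such differences in the real arrays. Pairing rests on the tag in the titles, which each experiment's arrays share. After subtraction of condition means, arrays of the same number correlated with a median of 0.281 (-0.194 to 0.536, 30 pairs) and others with -0.172 (60 pairs). Alternatives were a replicate block, the compared arrays alone, no dimmest 25% of clusters, a trended robust variance, array weights, cyclic loess, means over clusters, adjusted p, and leaving out arrays or experiments. Promoter sequences are from RefSeq (GRCh38.p14), and UBA7 and USP18 had no entry. Figures were drawn with matplotlib 3.10.9.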

Additional observations from a re-analysis of the deposited data

How the results depend on the processing

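The 5 genes called under IFN-α were called under all 17 alternatives each, with changes of 1.53 to 1.93 for HERC6, 1.49 to 1.76 for USP18, 0.74 to 0.95 for UBE2L6, 0.67 to 0.93 for UBA7 and 0.54 to 0.68 for ISG15. Their largest adjusted p values were 0.576 for HERC6, 0.57 for UBA7, 0.396 for ISG15, 0.15 for UBE2L6 and 0.0183 for USP18 (limma), so only the last stayed under 0.05 throughout. Against high-dose AA, 4 to 5 genes were called when arrays were left out, and HERC6 was lost without experiment 2. The replicate block changed no call of a member in any comparison: 5 genes were called with it under IFN-α and 0 at each AA dose. It did lower the standard error of HERC6, from 0.270 to 0.111 under IFN-α and at each AA dose. The intervals of HERC6 given above thus also hold its difference between experiments. Without the dimmest 25% of clusters HERC5 was not tested. No AA comparison called a member under any alternative, also without the high-dose array that stood apart, and signs of changes near 0 turned. With array weights, whose estimation stopped before full convergence, ISG15 was 0.11 at the high dose, and the slopes were 0.046 for ISG15, -0.010 for HERC5 and 0.00285 for USP18. With cyclic loess, ISG15 was 0.030 and HERC5 -0.016 at the high dose, USP18 was 0.00396 at the intermediate dose, and the slopes were 0.018 for ISG15 and -0.072 for HERC5. Without the IFN-α arrays the difference of UBE2L6 between experiment 1 and the others was 0.00411. The cause was not tested. Leaving out arrays or experiments turned the sign of further changes. At the high dose the range was -0.033 to 0.14 for HERC5, -0.29 to 0.12 for HERC6, -0.090 to 0.061 for ISG15 and -0.39 to 0.064 for USP18. At the intermediate dose it was -0.017 to 0.14 for HERC5, -0.055 to 0.068 for ISG15, -0.00329 to 0.023 for UBE2L6 and -0.21 to 0.097 for USP18. At the low dose it was -0.20 to 0.040 for HERC6, -0.089 to 0.12 for ISG15, -0.00591 to 0.044 for UBE2L6 and -0.35 to 0.045 for USP18. The slopes ran from -0.073 to 0.065 for HERC5, -0.28 to 0.095 for HERC6, -0.075 to 0.045 for ISG15 and -0.23 to 0.056 for USP18, and HERC5 under IFN-α against high-dose AA from -0.00466 to 0.075. Of the named list genes, IRF9 lost its call without experiment 1 or experiment 2 (0.94 to 1.11), and CHMP5 (0.74 to 0.99) and PML (0.36 to 0.46) lost theirs in 7 of 10 such fits each. With 3 arrays per condition and 1 low-signal gene, small changes of HERC5 cannot be seen.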
